A study of Homo sapiens with 8 samples.

Results

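The promoters of 42 genes of DNA double-strand break repair were examined for endogenous G-quadruplexes (G4s) in K562 and HepG2 cells. The genes were taken by name, from BRCA1 complex members to the Fanconi anaemia proteins, and all 42 were found among the 20144 protein-coding genes of the annotation. G4s are four-stranded DNA structures held together by stacked squares of guanines. For G4 ChIP-seq, sheared chromatin was treated with RNase A and precipitated with BG4, an antibody specific for the folded structure, and the recovered DNA was sequenced. K562 cells come from a chronic myelogenous leukemia and HepG2 cells from a hepatocellular carcinoma, and no treatment of either is labelled. Each line has 3 labelled G4 ChIP libraries and 1 input library.

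The values are positions of intervals. The high-confidence lists hold stretches that the authors called as peaks in at least 5 of 8 K562 replicates or 6 of 9 HepG2 replicates, and the lower-confidence lists hold stretches called in at least 2. The paper describes a smaller number of independent experiments per line, each with technical replicates. The replicates counted here are therefore not all independent, and a call in 2 can come from 1 experiment. A gene was scored by the intervals that shared at least 1 bp with the 1 kb on either side of any of its annotated transcription start sites (TSSs). Each list is 1 merge of all replicates of a line, without heights, read counts or replicate values. No spread between replicates, depth or test can therefore be given, and shares of genes are set beside the same shares over all protein-coding genes as a description. The lists hold 9205 and 19249 intervals for K562 and 8805 and 28387 for HepG2, and of these 29, 51, 29 and 46 lay at the repair genes, in that order. As a check of the line labels, 6 of 11 hepatocyte marker genes had a high-confidence interval in HepG2, among them APOB and HNF4A. These are 54.5%, beside 30.8% of all protein-coding genes. None of the 11 had one in K562 (beside 35.7%). Of 12 erythroid and leukaemia markers, 5 had one in K562 (41.7%, beside 35.7%) and 2 in HepG2 (16.7%, beside 30.8%). The K562 share was near that of all genes, so these high-confidence calls say little about the K562 label. The lower-confidence list reached 10 of the 12 in K562 (83.3%, beside 50.2%) and 3 in HepG2 (25%, beside 51.3%).

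A double-strand break severs both strands of the helix and is among the most toxic lesions a cell meets. Cells either join the ends directly, a route begun by the Ku proteins, or trim them to single-stranded tails for recombination with the sister chromatid, a route in which BRCA1, PALB2 and BRCA2 act together. ATM and ATR signal the break, ubiquitin marks on chromatin steer the choice of route, and the Fanconi anaemia proteins act where the lesion is a crosslink between strands. Folded G4s are found mostly in open, nucleosome-depleted chromatin at active promoters, and a stretch with 4 runs of guanines separated by short loops is the usual sequence from which one can fold.

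At 4 genes a complete G4 motif, here 4 runs of 3 or more G joined by loops of between 1 and 7 bases, lay wholly inside the stretch covered by the high-confidence lists of both lines. These motifs are shown because they are the sequences at which the lists of both lines and the motif coincide. Each is printed 5′ to 3′ on its G-rich strand from the GRCh37 genome, with the G-runs in capitals. The motif of BARD1 lies at chr2:215674482-215674507 and that of RAD54L at chr1:46713149-46713172, both on the template strand of their gene. The motif of MDC1 lies at chr6:30685309-30685329 and that of RNF168 at chr3:196230741-196230755, both on the coding strand.
BARD1: GGGactcgcaGGGcacaGGGGcGGGG
RAD54L: GGGGGtggcGGGGGaGGGGcGGGG
MDC1: GGGaagtGGGtggtGGGcGGG
RNF168: GGGaGGGaGGGcGGG
The motif of RNF168 is 15 bases long and has loops of 1 base only, whereas the BARD1 motif spans 26 bases with a longest loop of 7 bases.

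At 6 further genes a motif lay inside a high-confidence interval of 1 line, or of both lines at different places. The motifs of 5 of them are shown, chosen after their positions were known. RBBP8 (chr18:20513305-20513324), TP53BP1 (chr15:43802971-43802997) and FANCC (chr9:98080053-98080073) had theirs in K562, and ATM (chr11:108093501-108093524) in HepG2. NHEJ1 had 1 motif in its K562 interval (chr2:220024997-220025022, shown) and another in a HepG2 interval upstream of it. All are again printed on the G-rich strand with the G-runs in capitals.
RBBP8: GGGctcccGGGcGGGGcGGG
TP53BP1: GGGGaGGGcgtggtGGGaggaaGGGGG
FANCC: GGGtccgtGGGGcGGGGcGGG
ATM: GGGGcGGGGatgaggaGGGcGGGG
NHEJ1: GGGGGaccGGGcGGGGcccagccGGG
The motifs of RBBP8, ATM and NHEJ1 lie on the coding strand, and those of TP53BP1 and FANCC on the template strand.

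Intervals were found at most of these promoters. In K562, 27 of the 42 genes had a high-confidence interval (64.3%), where 35.7% of all protein-coding genes did. In HepG2 there were 24 (57.1%, beside 30.8% of all protein-coding genes). High-confidence intervals in both lines were present at 19 genes (45.2%, beside 24.3%). A further 8 genes had one in K562 and not in HepG2 (19%, beside 11.4%), and 5 had one in HepG2 and not in K562 (11.9%, beside 6.48%). The lower-confidence list reached 37 genes in K562 (88.1%, beside 50.2%) and 35 in HepG2 (83.3%, beside 51.3%). Only BRCA2, FANCF, FANCM and RAD51B, 4 genes or 9.52%, had no interval in any of the 4 lists, where 41.1% of all protein-coding genes had none.

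**Figure D1:**
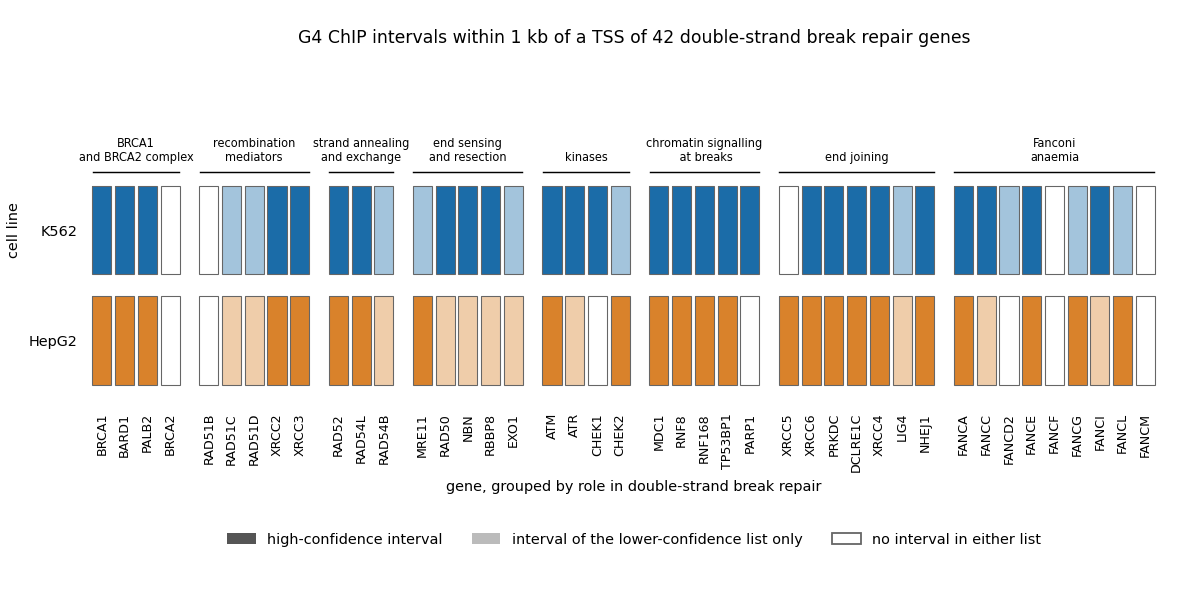
Each column is a gene and each row a cell line. Full colour marks a high-confidence interval within 1 kb of a TSS, pale colour an interval of the lower-confidence list only, and white no interval. In K562, 27 genes are in full colour, in HepG2 24, and 19 genes are so in both rows.

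The repair genes have more annotated TSSs than other genes, with a median of 16.5 beside 5, and their windows cover a median of 9324 bp beside 4584 bp. With only the canonical TSS of each gene, the counts were 25 of 42 in K562 (59.5%, beside 32.8% of all protein-coding genes), 23 in HepG2 (54.8%, beside 27.8%), 17 in both lines (40.5%, beside 22.1%) and 4 with no interval (9.52%, beside 45.9%). BRCA1 lost its K562 high-confidence call and TP53BP1 its call in both lines in that setting. The 59 other genes of double-strand break repair that were listed by name, such as H2AX, RIF1, RPA1 and WRN, had a high-confidence interval in K562 at 39 genes (66.1%), in HepG2 at 36 (61%) and in both lines at 29 (49.2%). Only 5 of these 59 (8.47%), MMS22L, POLQ, SEM1, SHLD1 and TOPBP1, had no interval in any list.

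**Figure D2:**
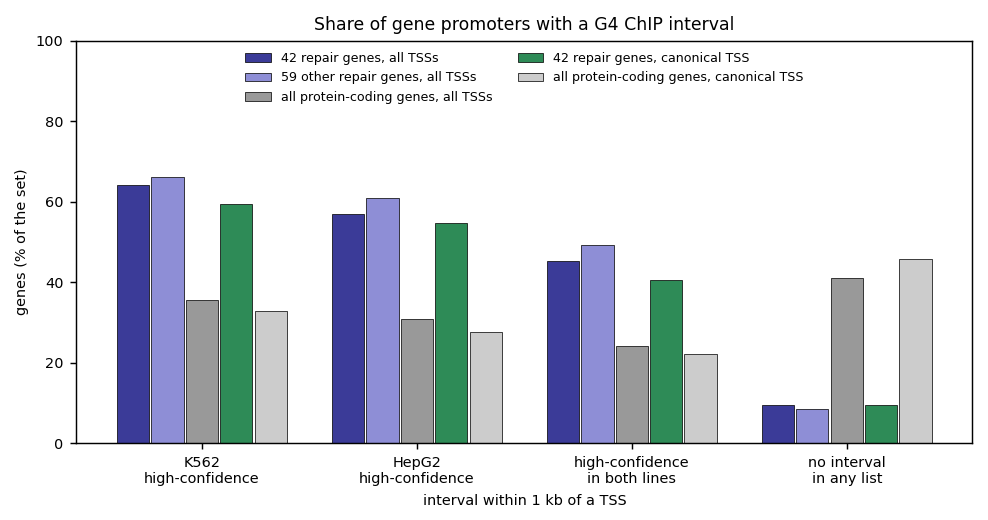
Bars give the percentage of each gene set with an interval within 1 kb of a TSS, for all annotated TSSs or for the canonical TSS alone. In K562, the 42 repair genes stand at 64.3% and the 59 others at 66.1%, beside 35.7% of all protein-coding genes. The order is the opposite for genes without an interval in any list.

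Of the 4 genes of the BRCA1 and BRCA2 complex, 3 were high-confidence in both lines, where 24.3% of all protein-coding genes were. Counts by role, here and below, rest on few genes each and do not set a role apart. BRCA1, its ubiquitin ligase partner BARD1 and PALB2, which bridges BRCA1 to BRCA2, had high-confidence intervals in K562 and HepG2, whereas BRCA2, a tumour suppressor that acts on the resected single-stranded DNA, had none in any list. BARD1 had the widest high-confidence intervals of the set, of 512 bp in K562 (chr2:215674444-215674955) and 533 bp in HepG2 (chr2:215674427-215674959). Both lay just upstream of its TSS, at -293 and -286 bp, and all 512 bp of the K562 interval were shared. A TSS of the oppositely transcribed noncoding gene SNHG31 was nearer to their centres, at 205 bp (K562) and 212 bp (HepG2). Positions are given from the interval's centre to the nearest TSS of the gene, negative upstream. The BARD1 intervals held 3 and 4 motifs, every one on the template strand, and 33 and 36 runs of at least 3 G on that strand beside 6 and 7 on the coding strand.

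The central 300 bases of the BARD1 interval in HepG2 (chr2:215674543-215674842) are printed on the coding strand as the middle of the widest high-confidence interval of the set. The capitals mark a complete motif, read here as C-runs because the guanines are on the other strand.
BARD1: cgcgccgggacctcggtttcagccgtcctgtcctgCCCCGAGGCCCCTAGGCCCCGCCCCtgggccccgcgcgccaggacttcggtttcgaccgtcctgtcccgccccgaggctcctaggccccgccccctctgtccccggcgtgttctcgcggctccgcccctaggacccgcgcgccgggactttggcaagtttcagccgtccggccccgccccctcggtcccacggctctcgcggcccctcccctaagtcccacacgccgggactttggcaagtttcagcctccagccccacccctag
Around the centre of this interval, the letters GGGCGG, the core of a GC box, occurred 5 times on either strand in these 300 bases, and CCAAT did not occur.

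BRCA1 had high-confidence intervals at 2 places. Lower-confidence intervals lay between them as well, near the far upstream start. Its canonical promoter held a HepG2 high-confidence interval of 300 bp (chr17:41277359-41277658, GC content 54%) that covered a TSS. The centre lay at -9 bp from an alternative start and at -128 bp from the canonical TSS. It was 59 bp from a TSS of NBR2, an oppositely transcribed noncoding gene. In K562 the same place had a lower-confidence interval of 301 bp only (chr17:41277288-41277588). The K562 high-confidence interval of BRCA1 (130 bp, chr17:41323105-41323234) lay at -45789 bp from the canonical TSS, within reach of a far upstream alternative start and 49 bp from a TSS of the oppositely transcribed gene NBR1. HepG2 had a high-confidence interval there too (127 bp). The call of BRCA1 in K562 thus rested on an interval next to NBR1. PALB2 was marked at its canonical promoter in both lines, by 214 bp in K562 and 333 bp in HepG2.

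The mediators RAD51B, RAD51C, RAD51D, XRCC2 and XRCC3, which assemble in small complexes during recombination, were divided. XRCC2 and XRCC3 had high-confidence intervals in both lines, RAD51C and RAD51D lower-confidence intervals only, and RAD51B no interval. The XRCC3 intervals had nearly the same borders, with 354 bp in K562 (chr14:104181772-104182125) and 372 bp in HepG2 (chr14:104181763-104182134). Both were centred at -108 bp and all 354 bp were shared. XRCC2 had 249 bp in K562 and 83 bp in HepG2. The lower-confidence interval of RAD51D in HepG2 was 3 bp wide, so its call there rested on a stretch far shorter than a G4 motif.

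Among the high-confidence intervals, XRCC3 had the widest without a complete motif. Its central 300 bases in HepG2 (chr14:104181799-104182098) are printed on the coding strand, with runs of at least 3 G or C in capitals, to show what such an interval looks like.
XRCC3: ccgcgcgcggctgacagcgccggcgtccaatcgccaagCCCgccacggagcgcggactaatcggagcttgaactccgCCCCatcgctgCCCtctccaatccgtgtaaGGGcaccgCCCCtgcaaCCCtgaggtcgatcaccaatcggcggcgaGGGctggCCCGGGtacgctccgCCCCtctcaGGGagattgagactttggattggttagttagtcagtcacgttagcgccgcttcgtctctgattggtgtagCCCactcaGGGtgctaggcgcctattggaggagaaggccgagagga
The full HepG2 interval held 8 runs of at least 3 G on the coding strand and 14 on the template strand, without a complete motif. CCAAT, the core of the box bound by NF-Y, occurred 6 times on either strand in these 300 bases, and GGGCGG 3 times.

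RAD51B was the gene without an interval that did hold a motif. It had 2 motifs in its windows, and the motif nearest a TSS (chr14:68310006-68310022, template strand, at -136 bp from an alternative TSS) is printed on its G-rich strand with the G-runs in capitals. Its longest run counts as a pair of runs with a G as the loop between them.
RAD51B: GGGGGaGGGGGGGaGGG
No motif lay within 1 kb of its canonical TSS, and the nearest high-confidence intervals were 199865 bp (K562) and 199899 bp (HepG2) from that TSS.

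Of the proteins that anneal and exchange strands, RAD54L, a motor protein of strand exchange, had a K562 interval of 381 bp (chr1:46712994-46713374). HepG2 had 2 intervals over the same stretch, of 135 bp (chr1:46712969-46713103) and 251 bp (chr1:46713140-46713390). The K562 interval held 2 motifs and each HepG2 interval 1, all on the template strand. RAD52, which anneals single strands, was high-confidence in both lines, yet its intervals did not overlap. The K562 interval ran from 1058772 to 1058862 on chromosome 12, in a 5′ UTR exon, and the HepG2 interval from 1058887 to 1059081, upstream of the TSS. The lower-confidence intervals of both lines overlapped both places. RAD54B had lower-confidence intervals only.

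Of the 5 genes of end sensing and resection, 3 were high-confidence in K562, 1 in HepG2 and none in both lines, where 24.3% of all protein-coding genes were high-confidence in both. With so few genes, this count does not set the group apart. Of the MRE11-RAD50-NBN complex, which recognises broken ends, RAD50 and NBN were high-confidence in K562 and MRE11 in HepG2. RBBP8, which encodes CtIP, the activator of MRE11, was high-confidence in K562, and the exonuclease gene EXO1 had lower-confidence intervals in both lines. The RAD50 interval was 279 bp wide in K562 (chr5:131892540-131892818) and covered the TSS at 6 bp. HepG2 had a lower-confidence interval of 199 bp there, which shared 186 bp with it. The MRE11 interval was 138 bp wide in HepG2 (chr11:94227031-94227168, at -49 bp), all of it within a lower-confidence K562 interval of 286 bp. RBBP8 had 2 intervals in K562. The interval of 147 bp (chr18:20513221-20513367) lay on the TSS, and that of 130 bp (chr18:20513717-20513846) on an alternative start in intron 1. The NBN interval in K562 was 143 bp wide, held 1 motif on the template strand and lay in intron 1, at 395 bp from the canonical TSS and -30 bp from an alternative start.

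The whole RAD50 interval is printed on the coding strand, with runs of at least 3 G or C in capitals, because it is the widest at a gene that was high-confidence in K562 only.
RAD50: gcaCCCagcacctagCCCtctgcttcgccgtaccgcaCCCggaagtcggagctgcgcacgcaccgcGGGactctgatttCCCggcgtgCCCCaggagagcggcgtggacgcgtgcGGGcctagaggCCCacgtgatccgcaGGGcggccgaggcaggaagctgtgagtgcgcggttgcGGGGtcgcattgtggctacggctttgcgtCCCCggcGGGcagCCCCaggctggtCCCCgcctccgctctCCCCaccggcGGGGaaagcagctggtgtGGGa
It had 7 runs of at least 3 G on the coding strand and 10 on the template strand, and a GC content of 72%, without a complete motif.

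Among the kinases that signal the break, ATM was high-confidence in both lines, ATR and its target CHEK1 in K562 only, and the ATM target CHEK2 in HepG2 only. The ATM interval was wider in HepG2 (349 bp, chr11:108093454-108093802) than in K562 (136 bp, chr11:108093517-108093652), and only the wider interval held the motif. ATR had 142 bp in K562 (chr3:142297598-142297739, at -94 bp), all of it inside a lower-confidence HepG2 interval of 505 bp. The CHEK1 interval was 21 bp wide (chr11:125495492-125495512, at -58 bp from an alternative start and 444 bp from the canonical TSS), and HepG2 had none. This call was lost when intervals under 50 bp were left out. The CHEK2 interval in HepG2 (309 bp, chr22:29137708-29138016, at -36 bp) and the lower-confidence interval in K562 (311 bp, chr22:29137707-29138017) had borders 1 bp apart at each end. Nearly the same stretch was thus called in at least 6 of 9 replicates of HepG2, and in 2 or more but fewer than 5 of 8 of K562.

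The central 300 bases of the CHEK2 interval (chr22:29137712-29138011) are printed on the coding strand, with runs of at least 3 G or C in capitals, as the widest at a gene that was high-confidence in HepG2 only.
CHEK2: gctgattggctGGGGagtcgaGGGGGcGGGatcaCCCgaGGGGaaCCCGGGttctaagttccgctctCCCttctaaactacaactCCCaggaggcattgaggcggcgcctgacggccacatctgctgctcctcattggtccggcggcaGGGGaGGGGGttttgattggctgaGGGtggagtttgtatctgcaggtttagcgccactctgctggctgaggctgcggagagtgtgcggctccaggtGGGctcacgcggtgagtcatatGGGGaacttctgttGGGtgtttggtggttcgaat
The full interval held 11 runs of at least 3 G on the coding strand and 5 on the template strand, and its 60.2% GC was lower than the 72% of RAD50.

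The genes of chromatin signalling were all high-confidence in K562 (beside 35.7% of all protein-coding genes), and 4 of 5 in HepG2 (beside 30.8%). MDC1, which binds phosphorylated H2AX, had an interval of 509 bp in K562 (chr6:30684992-30685500) and 2 in HepG2, of 59 bp (chr6:30685006-30685064) and 366 bp (chr6:30685147-30685512). RNF8 and RNF168, ubiquitin ligases that act after MDC1, had intervals over the TSS in both lines, of 127 and 212 bp in K562 and 116 and 186 bp in HepG2. The RNF168 intervals of both lines shared their border on the side of the gene body. TP53BP1, whose product holds back resection, had its high-confidence intervals far from the canonical TSS, at -17713 bp in K562 (442 bp, chr15:43802846-43803287) and -17778 bp in HepG2 (275 bp, chr15:43802995-43803269), near an alternative start. They lay 89 and 24 bp from a TSS of the neighbouring gene MAP1A, and the canonical TP53BP1 promoter had lower-confidence intervals in both lines. PARP1, a sensor that adds ADP-ribose chains at breaks, had a K562 interval of 130 bp with 80% GC (chr1:226595765-226595894, at 25 bp) and no interval in either HepG2 list.

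Of the 7 end joining genes, 5 were high-confidence in K562 (beside 35.7% of all protein-coding genes) and 6 in HepG2 (beside 30.8%). XRCC6, which encodes Ku70, was high-confidence in both lines with 206 bp in K562 and 286 bp in HepG2. XRCC5, which encodes its partner Ku80, had a HepG2 interval of 77 bp (chr2:216973966-216974042, at -50 bp) and no interval in either K562 list. DCLRE1C (the nuclease Artemis), XRCC4 (the scaffold of the ligase) and NHEJ1 (XLF, which bridges the ends with XRCC4) were high-confidence in both lines. LIG4, the ligase itself, had lower-confidence intervals only. The NHEJ1 interval of K562 (88 bp) lay in intron 1 and overlapped a HepG2 interval of 32 bp, and HepG2 had 2 more, of 111 and 98 bp, around the TSS. PRKDC, the catalytic subunit of DNA-PK, had its high-confidence intervals at -712 and -732 bp from the canonical TSS, 50 and 30 bp from a TSS of the neighbouring replication gene MCM4, and both calls were lost with windows of 500 bp. Its own TSS had a lower-confidence interval in K562 alone.

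Of the 9 Fanconi anaemia genes, 4 were high-confidence in K562, 4 in HepG2 and 2 in both lines. The shares over all protein-coding genes were 35.7%, 30.8% and 24.3%. FANCA and FANCE, members of the core complex, were high-confidence in both lines. FANCC, also of the core complex, was so in K562, with 102 bp on the canonical promoter (chr9:98079991-98080092) and 129 bp near a far alternative start (chr9:98189134-98189262, at -109207 bp from the canonical TSS). FANCI, which pairs with FANCD2 as the clamp that the complex modifies, had 182 bp in K562 (chr15:89786988-89787169, at -97 bp), while FANCD2 had a lower-confidence interval in K562 and none in HepG2. FANCG had 74 bp in HepG2 (chr9:35080009-35080082, at -45 bp). FANCL, the ubiquitin ligase of the complex, had 253 bp in HepG2 (chr2:58468316-58468568, at 6 bp), centred in the coding part of the first exon. FANCF and FANCM had no interval. For FANCM, a DNA translocase, both lines had a high-confidence interval just outside the window, 1290 bp (K562) and 1255 bp (HepG2) from the canonical TSS, on the side of the neighbouring gene FKBP3.

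**Figure D3:**
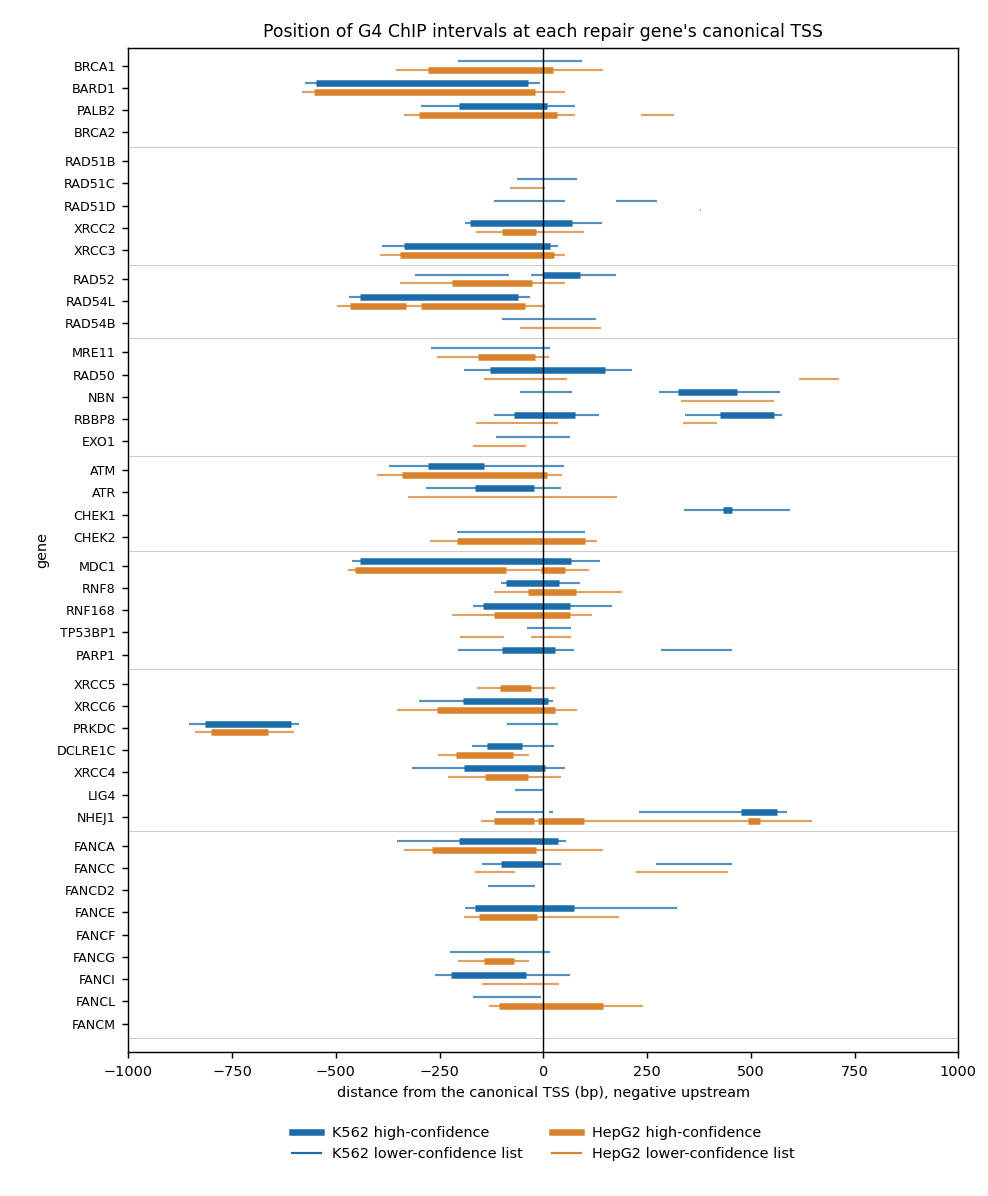
Each row is a gene, drawn along the distance from its canonical TSS in bp with upstream to the left. Thick lines are high-confidence intervals and thin lines those of the lower-confidence list, for K562 above and HepG2 below. Most thick lines are centred upstream of the TSS. Several, such as those of MDC1, RNF168 and CHEK2, run across it. Those of NBN and CHEK1 lie downstream, as do some of RBBP8 and NHEJ1. PRKDC stands apart at -712 and -732 bp. Intervals beyond 1 kb of the canonical TSS are outside the frame (at BRCA1, TP53BP1 and FANCC, and lower-confidence ones at LIG4 and RNF8).

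Of the 13 genes that were high-confidence in 1 line only, 10 had a lower-confidence interval in the other line, and at all 10 it shared bases with the high-confidence interval. The 3 others were CHEK1 and PARP1 in K562 and XRCC5 in HepG2. The 10 genes were 6 of the 8 high-confidence in K562 only and 4 of the 5 in HepG2 only. Over all protein-coding genes, 1651 of 2297 and 815 of 1305 had a lower-confidence interval in the other line, without regard to shared bases. At the repair genes as over all genes, absence from 1 high-confidence list thus mostly meant a call in fewer replicates, and not the lack of any call.

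Where both lines had a high-confidence interval, they usually overlapped. There were 20 overlapping pairs at 18 genes, and RAD52 was the gene of 19 without such a pair. Such overlap was general, as 4733 of the 4894 protein-coding genes high-confidence in both lines had an overlapping pair. The K562 interval was the wider at 13 pairs (65%, beside 61.6% of 5364 pairs at all protein-coding genes). Median widths in the pairs were 226 bp in K562 and 164 bp in HepG2 (241 and 214 bp over all protein-coding genes), and the centres were a median of 38.5 bp apart (25.5 bp over all). ATM, PALB2, XRCC6, DCLRE1C, BARD1, XRCC3 and FANCA had the wider interval in HepG2.

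**Figure D4:**
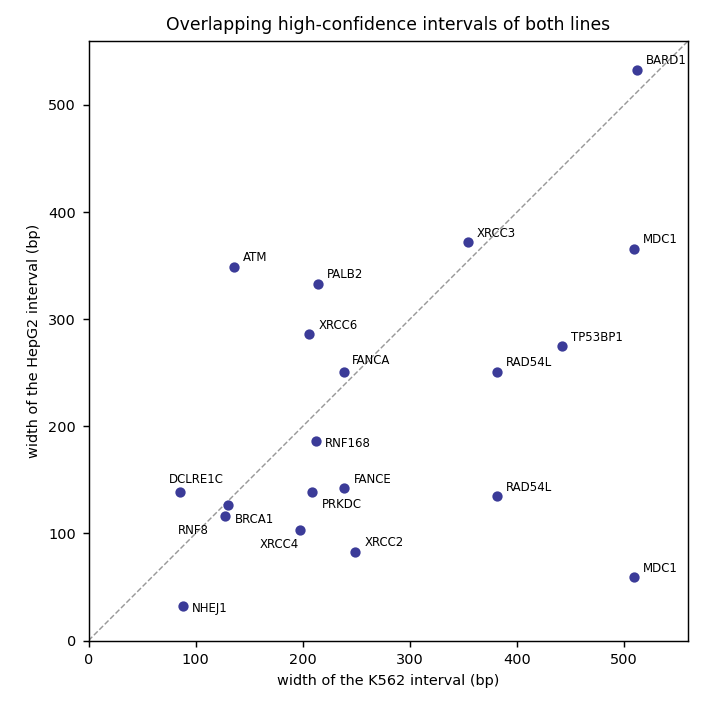
Each point is an overlapping pair of high-confidence intervals at a repair gene, with the K562 width on the horizontal and the HepG2 width on the vertical axis, both in bp, and the dashed line marks equal widths. BARD1 (512 and 533 bp) and XRCC3 (354 and 372 bp) lie near the line, and ATM (136 and 349 bp) lies farthest above it. MDC1 and RAD54L have 2 points each.

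The high-confidence intervals sat close to the TSSs. Their centres had a median position of -45 bp in K562 (from -908 to 258 bp) and -45 bp in HepG2 (from -885 to 295 bp), where all protein-coding genes with intervals had medians of -59 and -71 bp. Measured from the canonical TSS instead, the medians were -91 bp in K562 and -113 bp in HepG2, and from the nearest TSS of a protein-coding transcript -45 and -85 bp. In K562, 24 of 29 intervals were centred upstream of the nearest TSS (82.8%, beside 80.3%), 19 covered a TSS (65.5%, beside 63.1%) and 25 were centred within 200 bp of one (86.2%, beside 81.2%). In HepG2 these counts were 23 (79.3%, beside 79.8%), 17 (58.6%, beside 53.2%) and 23 (79.3%, beside 80.1%) of 29. Measured from the nearest TSS, the positions of the repair genes were thus near those of all genes. The repair genes have more annotated TSSs to be near, with a median of 16.5 beside 5. No value over all genes is given beside the medians from the canonical TSS. Against the canonical transcript, 22 K562 intervals lay upstream, 4 in a 5′ UTR exon and 3 in an intron. In HepG2, 24 lay upstream, 3 in a 5′ UTR exon, 1 in an intron and 1 in a coding exon. Widths ran from 21 to 512 bp in K562 and from 32 to 533 bp in HepG2, with medians of 182 and 142 bp (203 and 182 bp over all protein-coding genes).

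Several intervals lay between a repair gene and a gene transcribed in the opposite direction. A divergent promoter was counted where an opposite-strand TSS of another protein-coding gene lay within 1 kb of the canonical TSS. Noncoding neighbours, such as SNHG31 at BARD1 and NBR2 at BRCA1, were not counted. This held for 14 of the 42 repair genes (33.3%, beside 13.8% of all protein-coding genes). Among these are ATM with NPAT, XRCC3 with ZFYVE21, PALB2 with DCTN5, XRCC6 with DESI1, XRCC4 with TMEM167A, CHEK2 with HSCB and BRCA2 with ZAR1L. Over all protein-coding genes, 58.6% of divergent promoters and 32% of the others had a K562 high-confidence interval, and 56.5% and 26.7% had one in HepG2. At the repair genes the counts were 8 of 14 divergent (57.1%) and 19 of 28 other promoters (67.9%) in K562, and 9 of 14 (64.3%) and 15 of 28 (53.6%) in HepG2. Of the 4 genes without any interval, BRCA2, FANCF and FANCM had divergent promoters. These were 3 of 14 divergent promoters (21.4%), beside 1 of 28 others (3.57%). Over all protein-coding genes the order was the opposite, with no interval at 13.3% of divergent promoters and 45.5% of the others. The repair counts are too few to set against this. A TSS of another protein-coding gene was nearer to the interval's centre than any TSS of the repair gene for 5 of 29 intervals in K562 (BRCA1, PALB2, TP53BP1, PRKDC and XRCC4) and 6 of 29 in HepG2 (the same genes and MRE11). No share over all protein-coding genes is given beside these counts, so they do not set the repair genes apart. Interval positions cannot tell to which of the paired genes a G4 belongs.

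Median promoter GC content was higher in the classes with a K562 high-confidence interval than in the others. Within 500 bp of the canonical TSS, GC content was 60.5% (median, 54% to 76.2%) at the 19 genes high-confidence in both lines and 60.2% (49.3% to 66.1%) at the 8 in K562 only. It was 55.2% (50.8% to 59.8%) at the 5 in HepG2 only and 55.9% (49.5% to 64.7%) at the 10 in neither line. The ranges of all classes overlap. Over all protein-coding genes the medians were 64.9%, 66.5%, 60.6% and 57.3% in the same order. The repair genes as a whole were slightly less GC-rich than all genes, with medians of 59% and 61.2%. Of the 16 repair genes with 55% to 60% GC, 10 were high-confidence in K562 and 10 in HepG2 (62.5% each), where 32.4% and 33.5% of all protein-coding genes in that range were. At 60% to 65% GC, the counts were 9 of 11 in K562 (81.8%, beside 45%) and 6 of 11 in HepG2 (54.5%, beside 41.5%). Transcription and chromatin accessibility were not analysed here, and their part in these shares was not tested.

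**Figure D5:**
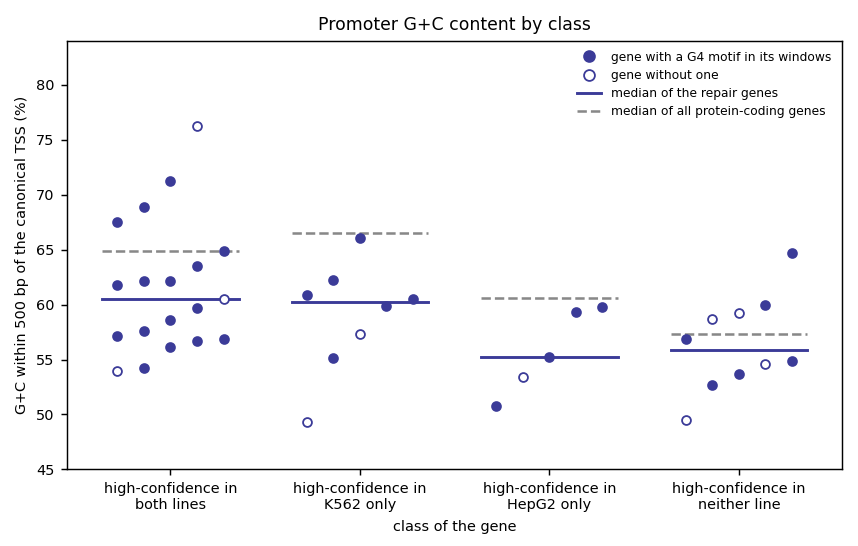
Points are the repair genes, with the GC content of the 500 bp on either side of the canonical TSS in percent on the vertical axis, by class. Filled points have a complete G4 motif in their windows and open points do not. Solid lines are medians of the repair genes and dashed lines those of all protein-coding genes. The median is 60.5% at genes high-confidence in both lines and 55.9% at genes high-confidence in neither, and the points of the classes overlap.

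A complete motif lay somewhere in the windows of 32 of the 42 repair genes (76.2%, beside 76.5% of all protein-coding genes), with a median of 1 motif beside 2 over all genes, although their windows were longer. Within 1 kb of the canonical TSS alone, 26 of 42 held a motif (61.9%, beside 68.3%). It was absent from the windows of RAD50, EXO1, CHEK1, DCLRE1C, XRCC4, FANCA, FANCF, FANCL, FANCM and BRCA2. Of the 32 genes with a motif, 22 had a K562 high-confidence interval (68.8%) and 20 a HepG2 one (62.5%). Of the 10 without, 5 had one in K562 (50%) and 4 in HepG2 (40%). Over all protein-coding genes these shares were 41.5% and 34.7% with a motif and 16.9% and 17.8% without.

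Most intervals themselves held no complete motif. In K562, 9 of the 27 high-confidence genes had a motif inside the interval (33.3%, beside 38.6% of all protein-coding genes with an interval): BARD1, FANCC, MDC1, NBN, NHEJ1, RAD54L, RBBP8, RNF168 and TP53BP1. In HepG2 there were 6 of 24 (25%, beside 28%): ATM, BARD1, MDC1, NHEJ1, RAD54L and RNF168. Motifs lay on the coding strand in 4 K562 and 3 HepG2 intervals and on the template strand in 5 and 4. With runs of at least 2 G, a looser motif, 24 of 29 K562 intervals and 22 of 29 HepG2 intervals held one. This looser motif lay in the windows of all 42 genes, and no share over all protein-coding genes is given beside it. Its counts therefore say little about the repair genes. GC content of the intervals had medians of 70.5% in K562 (50.8% to 80%) and 66.2% in HepG2 (54% to 75.9%).

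Short promoter elements were searched for in the 300 bases around each interval's centre, on both strands. GGGCGG, whose G-run can also be part of a G4 motif, was present in 27 of 29 K562 intervals (93.1%, beside 86.4% of 7371 intervals at all protein-coding genes) and 26 of 29 HepG2 intervals (89.7%, beside 79.4% of 6035). CCAAT was present in 15 (51.7%, beside 38.4%) and 17 (58.6%, beside 46%). RAD54L had the most GGGCGG of the repair genes, 8 in K562, and XRCC3 the most CCAAT, with 6 in either line. Both RAD52 intervals and both PALB2 intervals lacked GGGCGG, as did the HepG2 interval at the canonical BRCA1 promoter. These matches are letters in the genome and do not show that a factor is bound.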

How the data were processed

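The authors carried out G4 ChIP-seq on K562 and HepG2 cells. Per the study's methods, reads were trimmed with cutadapt, aligned to hg19 with BWA, freed of duplicates with Picard and samtools, called as peaks per replicate with MACS2 and merged with bedtools multiinter. The deposited files hold interval positions in bp and nothing else, so depth per sample is unknown and a wide or repeatedly called interval cannot be told from a high one. The 4 lists are those of at least 5 of 8 or 2 of 8 replicates (K562) and 6 of 9 or 2 of 9 (HepG2). The labels name 3 G4 ChIP libraries and 1 input per line, called technical replicates there, and do not tie them to these replicates.

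Intervals were compared with all TSSs of GENCODE release 44 lifted to GRCh37, the build of hg19, with 1 kb either side and at least 1 bp shared. Of the protein-coding genes, 19 copies on masked sequence were left out. Motifs, GC content and coordinates (counted from 1) were read from GRCh37. No tests were run, because each line has 1 merged list per threshold.

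The 42 genes, the other lists and the alternatives were chosen with earlier results of these data known. Some genes of the marker and other repair lists are not reported here and were left out of the counts. All 42 genes were placed by name in a class. Positions and widths were given in full for genes high-confidence in exactly 1 line (NBN by width and distances only), for the 6 with the widest intervals in both lines, and for genes without an interval that hold a motif. BRCA1, NHEJ1, PRKDC, RAD52 and the neighbouring genes were picked once their values had been seen, as were divergent promoters and the GGGCGG and CCAAT searches. No sequence was printed for NBN, RAD54B and PRKDC. Other windows, TSS sets, overlap rules, width minimums and motif definitions were tried. The overlap and motif functions were tested on simulated data and equalled a direct search in 100% of 300 and 3000 cases. The software was Python 3.11.15 with scipy 1.17.1, pysam 0.24.0, numpy 2.4.6 and matplotlib 3.10.9, and samtools 1.23.1.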

Additional observations from a re-analysis of the deposited data

How the results depend on the processing

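The counts of genes in each class stayed within 1.5 times their values with 500 bp or 2 kb windows, upstream windows alone, protein-coding or canonical TSSs, other overlap rules, and intervals of at least 50 or 100 bp. Between them these settings changed the class of 17 gene and line combinations, among them those of BRCA1, TP53BP1, PRKDC (high-confidence intervals lost with 500 bp), FANCM (gained with 2 kb) and CHEK1. With intervals of at least 100 bp, XRCC2, XRCC5 and FANCG in HepG2 and RAD52, DCLRE1C and NHEJ1 in K562 were lost from the high-confidence class. The motif counts depended on the definition. Genes with a motif in the interval rose from 9 to 14 in K562 and from 6 to 10 in HepG2 with loops of up to 12 bases, and to 22 and 20 with runs of at least 2 G. The median position was -91 bp in K562 and -113 bp in HepG2 from the canonical TSS, and -85 bp in HepG2 from the nearest protein-coding TSS, in place of -45 bp from the nearest TSS. No paired analysis was possible because each line is 1 merged list without replicate numbers, and for the same reason no replicate could be left out. No depth or signal stands behind a call, and a merge threshold of 5 of 8 replicates is not the same as 6 of 9, so the number of genes called cannot be ranked between the lines.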
